A study of Mus musculus with 9 samples.

Results

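The 9 genes described here encode enzymes that consume or rebuild nicotinamide adenine dinucleotide (NAD), out of 57238 entries in a gene table from cultured mouse dendritic cells. They were taken by gene name: Cd38 and Bst1, which consume NAD at the cell surface; Sirt1 and Parp1, which consume it in the nucleus; Nampt, Nmnat1, Nmnat3 and Naprt, which rebuild it; and Nadk, which phosphorylates it. Each name matched 1 entry, and all 9 passed the filter on low counts that left 15028 genes for testing. They were chosen by their role in NAD metabolism and selected on read counts of the same TDE, NE and CTR libraries, whose differences between groups were already known, so their levels and fold changes are a description, without a test.

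The cells were bone marrow-derived dendritic cells (BMDCs) of wildtype C57BL/6 mice, grown for 6 days, per the labels, in 20 ng/ml of the growth factor GM-CSF; the study's methods describe a longer culture. Control cells (CTR) received no exosomes, a further group received exosomes of NIH-3T3 cells (NE), a non-cancerous mouse fibroblast line, and the remaining group received exosomes of tumor cells (TDE). Exosomes are small membrane vesicles that cells release, and they were left on the BMDCs for 24 h. Each group had 3 libraries of 17469782 to 21092943 estimated reads, so that 3 reads correspond to 0.135 to 0.189 CPM, the count scaled to a common library size after TMM normalization. The labels name neither the tumor line nor the exosome dose, and they do not say whether the libraries of a group came from separate cultures, so p-values measure the spread between these libraries, which may be technical.

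NAD carries electrons in central metabolism and is also broken down as a substrate. Cells make it from tryptophan, from nicotinic acid and, by the salvage pathway, from the nicotinamide that NAD-consuming enzymes release. CD38 is an ectoenzyme of many leukocytes that splits NAD into nicotinamide and ADP-ribose, with some cyclic ADP-ribose, a messenger that releases stored calcium, and it is known for its part in dendritic cell migration to chemokines.

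Control replicate 1 stood apart from the other libraries. Across genes it correlated with the other controls at 0.870 on average, while the lowest correlation among the other 8 libraries was 0.941, and its TMM factor was 0.751. Its level of S100a8, a calcium-binding protein abundant in neutrophils, was 8026 CPM, compared with 1601 and 1157 CPM in control replicates 2 and 3. The 9 genes, the counts of calls and the pathway genes called are therefore given with and without this library in TDE against CTR.

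The dendritic cell label was checked against marker genes. Itgax, which encodes the dendritic cell integrin CD11c, averaged 149 CPM in CTR, 163 CPM in NE and 112 CPM in TDE. Adgre1, which encodes the macrophage protein F4/80, averaged 378, 454 and 2229 CPM in the same order. The summed level of 11 dendritic cell markers ranged from 3329 to 11357 CPM in CTR, from 3190 to 4026 CPM in NE and from 1666 to 1765 CPM in TDE, and of the 10 tested 0 were higher and 4 lower in TDE than in CTR by edgeR. The summed level of 10 macrophage markers ranged from 4187 to 4597, from 3980 to 4435 and from 5277 to 5653 CPM, with 1 marker higher and 2 lower in TDE than in CTR by edgeR. Adgre1, 1 of these 10, was at 206 to 480 CPM in CTR and at 2114 to 2312 CPM in TDE. Adgre1 rose by more than the sum did, so the sum does not show a rise of the other macrophage markers. The 11 neutrophil markers summed to between 7548 and 28510 CPM in CTR, 7954 and 11203 CPM in NE and 3673 and 3967 CPM in TDE, and 7 of the 11 were lower in TDE than in CTR. Ly6g, a neutrophil surface protein, averaged 46.7, 32.6 and 8.35 CPM. All 7 eosinophil markers tested and 5 of 6 mast cell and basophil markers were also lower in TDE, with sums of 112 to 140 CPM and 45.7 to 50.5 CPM there, against 607 to 1642 CPM and 175 to 421 CPM in CTR. These marker calls come from the fit to all 9 libraries and were not repeated without control replicate 1. In that fit 7.57% of all genes tested were higher and 9.34% lower in TDE than in CTR. No marker on these lists was at 0 in every library. The summed levels of several cell type lists thus moved with treatment, and their part in the results below was not tested. In bulk RNA, fewer cells of a type and less RNA per cell cannot be told apart.

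The positions of the 9 genes come from GENCODE vM21 on GRCm38, since the build used for counting is not given in the sources used here. Bst1 (ENSMUSG00000029082, chromosome 5, 43818885 to 43843986) and Cd38 (ENSMUSG00000029084, chromosome 5, 43868553 to 43912375) lie next to each other on the plus strand with 24566 bases between them, and they are known to have arisen by gene duplication. Nampt lies on chromosome 12 (32819545 to 32853349), Sirt1 on chromosome 10 (63319005 to 63381704), Parp1 on chromosome 1 (180568924 to 180601254), Naprt on chromosome 15 (75890956 to 75894481) and Nmnat3 on chromosome 9 (98287435 to 98420438). Nmnat1 (149467572 to 149485202) and Nadk (155562378 to 155591001) are both on chromosome 4. No source used here says whether counting took account of strand. Exons of Naprt share 277 bases (11.8% of its exon length) with Eef1d, a translation elongation factor gene on the same strand, and exons of Bst1 share 98 bases (2.95%) with Fbxl5 on the opposite strand, so a share of reads cannot be assigned with certainty. Sirt1 shares 65 exon bases with the antisense gene Gm16145 and Parp1 shares 7 with Mir6904.

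The sequences before the starts of Cd38 and Nampt are shown because these were the surface consumer with the highest fold change and the salvage enzyme that was higher with it, and because they differ in base composition. Both are from RefSeq (GRCm38.p6) and are written 5′ to 3′ on the plus strand, which is the gene strand of both. For Nampt all 250 bases before the RefSeq start (chr12:32820085-32820334) are given, with matches to the GC box GGGCGG, on either strand, in capitals. The GENCODE gene starts earlier, at 32819545, so this window lies within its interval, with 0 bases in GENCODE exons. For Cd38 the last 30 bases before the start (chr5:43868779-43868808) are given, since the whole window lies in an exon of the GENCODE annotation.
Nampt: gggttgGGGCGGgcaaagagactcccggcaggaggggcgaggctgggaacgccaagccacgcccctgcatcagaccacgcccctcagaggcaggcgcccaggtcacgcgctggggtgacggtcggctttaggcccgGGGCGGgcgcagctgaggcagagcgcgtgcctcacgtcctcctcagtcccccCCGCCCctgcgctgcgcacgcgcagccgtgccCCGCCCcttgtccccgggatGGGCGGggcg
Cd38: gataaaagcaagtgaaaaaaaggaggaggg

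The Nampt window was 75.6% G or C with 27 CpG sites, and the Cd38 window of the same length was 48.8% G or C with 1 CpG site. Over the 32851 windows of all genes the medians were 52.4% and 6 CpG sites. The GC box matched 5 times before Nampt, at 244, 114, 62, 30 and 10 bases upstream, and was found in 32.7% of all windows. It was not found in the Cd38 window, nor were the consensus of NF-kB (3.90% of windows), the AP-1 motif TGANTCA (6.75%), the E-box CACGTG (6.02%), the interferon-stimulated response element (2.98%) or the direct repeat 1 of nuclear receptors (0.0335%), all searched on both strands. None of the last 5 was found before Nampt either, so no match there overlaps another motif. Windows were at hand for 7 of the 9 genes, and 6 of these 7 had a GC box. A match is a description of letters and not of binding.

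Cd38 was far higher in TDE-treated BMDCs than in either other group, and Bst1, its neighbor, was higher in the same libraries by a smaller factor. The Cd38 level was 42.7, 49.5 and 53.5 CPM in CTR replicates 1 to 3, 51.6, 50.4 and 55.6 CPM in NE, and 425, 419 and 412 CPM in TDE. Every TDE library lay above every CTR and NE library, while CTR and NE overlapped. The means were 48.6 ± 5.47, 52.5 ± 2.71 and 419 ± 6.39 CPM (SD, n = 3 each). The fold change was 8.61 against CTR (log2 3.11 ± 0.14, SE) and 7.97 against NE (log2 2.99 ± 0.14), and NE and CTR differed by 0.11 ± 0.13 on the log2 scale. Without control replicate 1 the log2 fold change against CTR was 3.01 ± 0.08. Cd38 had the highest fold change of the 9 genes and ranked 75 from the highest of 15028 genes in TDE against CTR.

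Bst1 encodes CD157, a surface enzyme anchored by glycosylphosphatidylinositol that also hydrolyzes NAD and is a marker of bone marrow stromal and myeloid cells. Its level was 150, 165 and 163 CPM in CTR, 152, 147 and 190 CPM in NE, and 351, 351 and 358 CPM in TDE. The TDE libraries lay above all others and differed among themselves by less than the NE libraries did. Bst1 differed by a log2 fold change of 1.15 ± 0.14 against CTR and 1.12 ± 0.14 against NE, that is 2.22-fold and 2.17-fold, with 0.04 ± 0.14 for NE against CTR and 1.10 ± 0.11 for TDE against CTR without control replicate 1.

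Sirt1 encodes a nuclear deacetylase that uses NAD as its co-substrate. Its level was 7.92, 32.3 and 33.2 CPM in CTR, 33.5, 32.7 and 35.8 CPM in NE, and 23.0, 23.8 and 23.6 CPM in TDE. The TDE libraries lay below every NE library and below control replicates 2 and 3, but above control replicate 1. The log2 fold change was therefore -0.06 ± 0.43 against CTR with all libraries and -0.49 ± 0.08 without control replicate 1, and it was -0.53 ± 0.44 against NE. For Sirt1, then, 1 library set both the size of the difference from the controls and its error.

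Parp1 encodes the poly(ADP-ribose) polymerase that is activated by DNA breaks and is a major nuclear consumer of NAD. Its level was 62.4, 85.1 and 94.8 CPM in CTR, 95.7, 93.5 and 72.8 CPM in NE, and 75.4, 77.1 and 75.6 CPM in TDE. The TDE libraries lay within the ranges of CTR and of NE, but within CTR only through control replicate 1 and within NE only through replicate 3. On the log2 scale Parp1 differed by -0.09 ± 0.18 from CTR, -0.25 ± 0.12 without control replicate 1, and -0.20 ± 0.18 from NE.

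**Figure D1:**
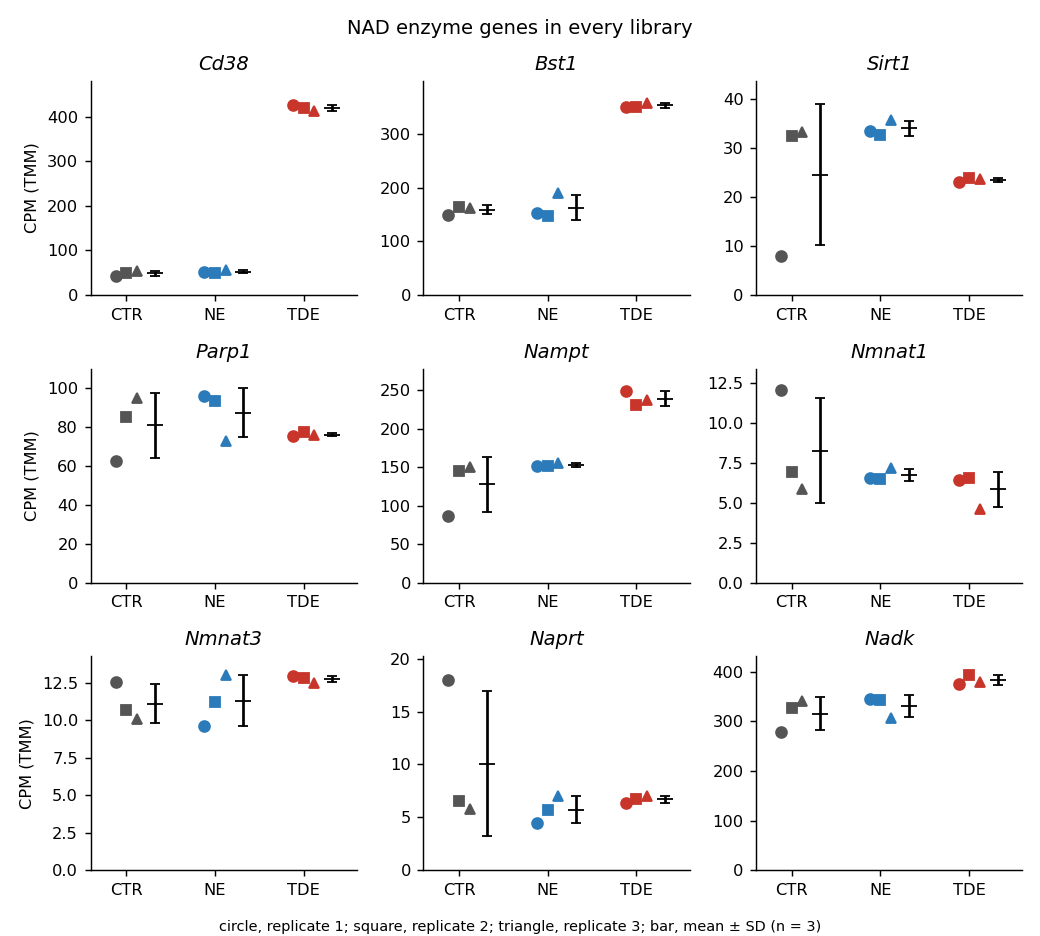
TMM-normalized CPM of the 9 NAD enzyme genes in every library, 1 panel per gene with its own axis from 0; symbols are replicates and bars are mean ± SD (n = 3). Cd38, Bst1, Nampt and Nadk lie above both other groups in all 3 TDE libraries, and control replicate 1 (circle) lies apart from replicates 2 and 3 in Sirt1, Nampt, Naprt and Nmnat1.

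Nampt, the rate-limiting enzyme of NAD salvage from nicotinamide, was the salvage gene with the highest fold change. Its level was 86.8, 145 and 150 CPM in CTR, 151, 152 and 156 CPM in NE, and 249, 230 and 237 CPM in TDE. All TDE libraries lay above all others, and the NE libraries lay just above the highest control. The log2 fold change against CTR was 0.90 ± 0.20 (1.87-fold) with all libraries and 0.68 ± 0.07 without control replicate 1, which was the lowest library of all. Against NE it was 0.64 ± 0.20 (1.56-fold), and NE differed from CTR by 0.26 ± 0.20, or by 0.05 ± 0.07 without control replicate 1.

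The genes of the later steps of salvage overlapped between the groups. Nmnat1 and Nmnat3 encode the nuclear and the mitochondrial enzyme that join the mononucleotide to adenylate. Nmnat1 was at 12.04, 6.91 and 5.85 CPM in CTR, 6.53, 6.51 and 7.21 CPM in NE, and 6.43, 6.55 and 4.597 CPM in TDE. These groups overlapped, with control replicate 1 the highest library. Nmnat3 was at 12.5, 10.7 and 10.04 CPM in CTR, 9.61, 11.2 and 13.03 CPM in NE, and 12.9, 12.8 and 12.5 CPM in TDE, and TDE overlapped with both other groups, with CTR only through control replicate 1. The log2 fold change of TDE against CTR was -0.49 ± 0.28 for Nmnat1 and 0.20 ± 0.16 for Nmnat3, and without control replicate 1 it was -0.14 ± 0.17 and 0.28 ± 0.13.

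Naprt encodes the enzyme that starts NAD synthesis from nicotinic acid. Its level was 18.0, 6.502 and 5.75 CPM in CTR, 4.46, 5.69 and 7.06 CPM in NE, and 6.37, 6.71 and 7.0 CPM in TDE. Control replicate 1 was the only library above 10 CPM, and the other 8 overlapped. The log2 fold change against CTR was -0.59 ± 0.42 with all libraries and 0.12 ± 0.19 without control replicate 1, so its sign changed with that library.

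Nadk encodes the cytosolic NAD kinase, which makes NADP. Its level was 277, 326 and 341 CPM in CTR, 345, 343 and 306 CPM in NE, and 375, 394 and 380 CPM in TDE. The TDE libraries lay above all others by a small margin. Its log2 fold change was 0.28 ± 0.13 against CTR, 0.19 ± 0.08 without control replicate 1, and 0.21 ± 0.13 against NE.

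**Figure D2:**
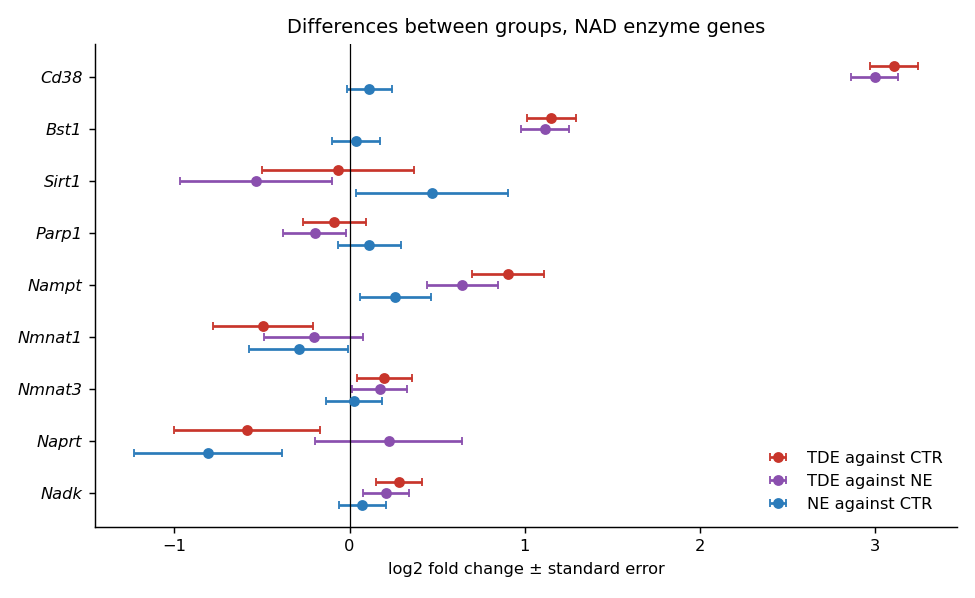
Log2 fold change of the 9 genes for TDE against CTR, TDE against NE and NE against CTR, with standard errors from the fit across all genes. Cd38 (3.11 and 2.99), Bst1 (1.15 and 1.12) and Nampt (0.90 and 0.64) have the highest values in both comparisons of TDE, which share the TDE libraries.

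In the fit across all genes by edgeR, 3 of the 9 genes (Cd38, Bst1 and Nampt) passed an adjusted p of 0.05 as higher in TDE than in CTR, where 7.57% of all genes tested did, and 0 passed as lower, where 9.34% did. Against NE, 2 (Cd38 and Bst1) passed as higher, where 6.73% of all genes did, and 0 as lower (7.21%). In NE against CTR 0 of the 9 passed, and 0 of all 15028 genes did, with 487 genes at an unadjusted p under 0.05, none of the 9 among them, 6 genes called by DESeq2 and 18 by limma voom. Without control replicate 1 the counts were 3 higher and 1 lower (Sirt1) against CTR, where 16.4% and 18.0% of all genes passed, and 4 higher (with Nampt and Nadk) and 1 lower (Sirt1) against NE, where 19.2% and 21.5% passed, and 0 in NE against CTR, where 0.0196% passed. Nampt no longer passed against CTR when any TDE library was left out. Since the 9 genes were chosen with these contrasts known, nothing is read from the counts.

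All 3 TDE libraries lay above all 3 CTR libraries for 4 of the 9 genes (Cd38, Bst1, Nampt and Nadk), compared with 22.2% of all genes tested, and below them for 0 (21.8%). The same 4 genes lay above NE (26.8% of all genes), and Sirt1 lay below NE (27.7%). Nampt was the only one of the 9 with NE above CTR (4.05%), and 0 lay below (3.67%). The median log2 fold change of the 9 genes was 0.20 against CTR and 0.21 against NE, and over all genes tested it was -0.05 and -0.02.

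**Figure D3:**
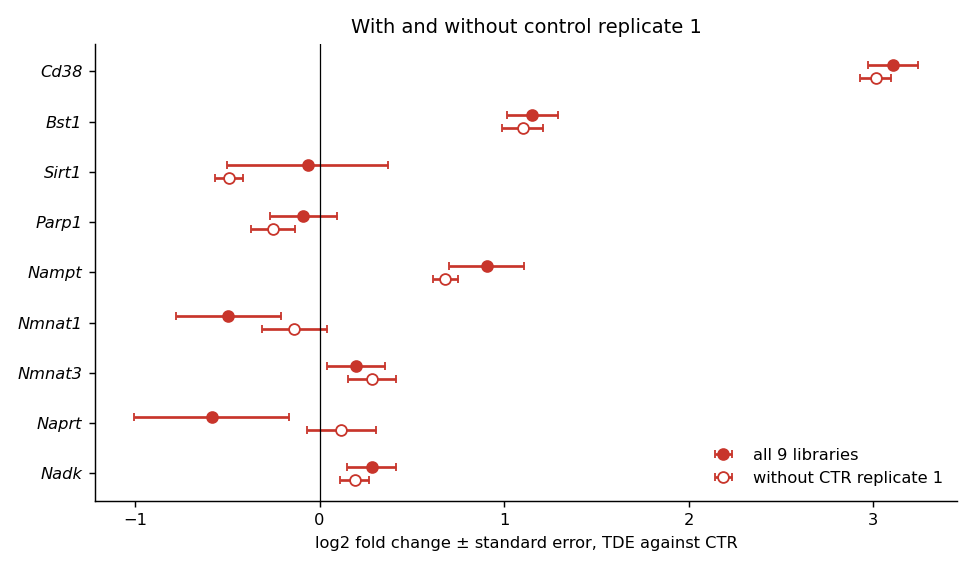
Log2 fold change of TDE against CTR with standard errors, from all 9 libraries (filled) and without control replicate 1 (open). Cd38 (3.11 and 3.01) and Bst1 (1.15 and 1.10) move little, Sirt1 goes from -0.06 to -0.49, and Naprt goes from -0.59 to 0.12.

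To compare the genes with each other, levels were taken per kilobase of the gene length in the deposited table (RPKM). In CTR the order was Nadk (107 ± 11.3 RPKM), Bst1 (55.7 ± 2.87), Nampt (28.2 ± 7.81), Parp1 (20.9 ± 4.29) and Cd38 (14.9 ± 1.67), followed by Nmnat1 (6.68 ± 2.67), Sirt1 (6.27 ± 3.67), Naprt (5.31 ± 3.62) and Nmnat3 (5.12 ± 0.60). The libraries of Nampt and Parp1, and those of Parp1 and Cd38, overlapped, as did those of each neighboring pair among the last 4. In NE the first 5 genes had the same order, without overlap between neighbors, and Sirt1 (8.70 ± 0.41 RPKM) came before Nmnat1 (5.45 ± 0.32) and Nmnat3 (5.21 ± 0.79), which overlapped, and Naprt (3.02 ± 0.69).

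In TDE, Cd38 stood level with the 2 most abundant genes of the set. Nadk was at 130 ± 3.21, Cd38 at 128 ± 1.95 and Bst1 at 124 ± 1.53 RPKM, with the Nadk and Cd38 libraries overlapping and those of Cd38 and Bst1 not. Nampt followed at 52.7 ± 2.1 and Parp1 at 19.6 ± 0.25 RPKM. Sirt1 (6.01 ± 0.11) and Nmnat3 (5.87 ± 0.10) overlapped, and Nmnat1 (4.73 ± 0.88) and Naprt (3.53 ± 0.17) were last.

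**Figure D4:**
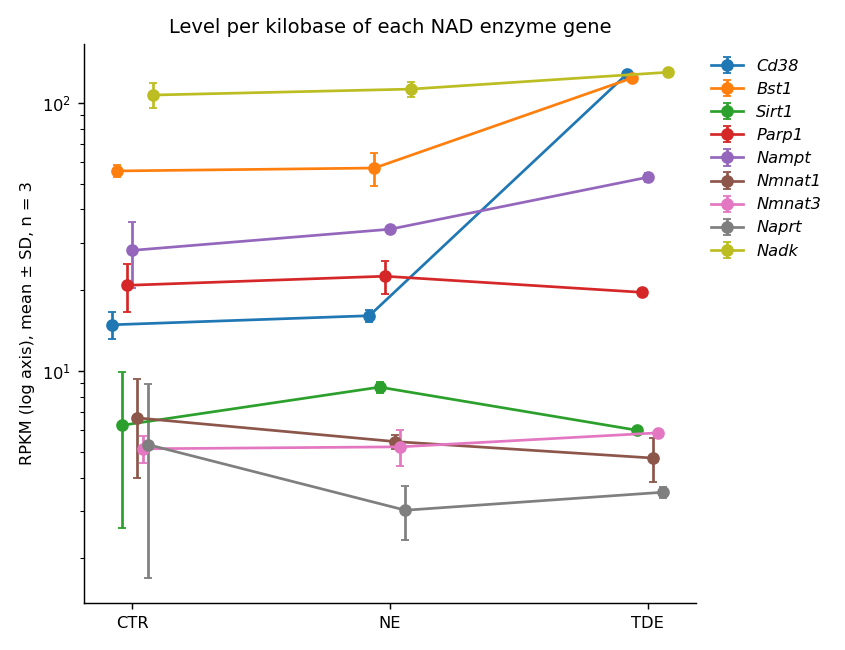
Mean RPKM (log axis) of the 9 genes in CTR, NE and TDE, with SD over 3 libraries; lines join the values of a gene. Cd38 moves from the fifth place in CTR (14.9 RPKM) and NE (16.1 RPKM) to the level of Nadk and Bst1 in TDE (128 RPKM).

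The genes whose pattern was most like that of Cd38 were found by Pearson's r of log2 CPM over the 9 libraries, among 10452 genes with a mean of at least 5 CPM. They were Zdhhc6 (r = 0.999), Dusp16, Lox, Maged1 and Susd2 (each r = 0.998). Lox, which encodes lysyl oxidase, a collagen cross-linking enzyme, averaged 4.31 CPM in CTR, 4.05 CPM in NE and 335 CPM in TDE, and Dusp16, a phosphatase of MAP kinases, averaged 14.8, 15.9 and 94.6 CPM. For Bst1 the genes were Cops2 (r = 0.996), Gypc (0.996), Ugp2 (0.994), Socs1 (0.994) and Aph1a (0.993). Among these, Socs1, an inhibitor of cytokine signaling, averaged 2.79, 2.6 and 12.4 CPM. For Nampt they were Rbm7 (r = 0.997), Apbb1ip (0.996), Snx18 (0.996), Fchsd2 (0.995) and Piga (0.995). Without control replicate 1 these 15 correlations ranged from 0.990 to 0.999. The mean was taken over all 9 libraries. Lox, Socs1 and Susd2 (0.241 CPM in CTR, 0.276 CPM in NE and 15.6 CPM in TDE) reached 5 CPM only through TDE. The points are libraries of 3 groups, so any gene with a like difference between groups has a high r.

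Other genes of NAD metabolism and ADP-ribose signaling were described from 10 lists with 66 names, of which 64 had an entry and 49 entries passed the filter. In TDE against CTR, 5 of the 49 were higher and 4 were lower by edgeR's quasi-likelihood test with Benjamini-Hochberg adjustment over all genes. The 9 called make 18.4% of the 49, where 16.9% of all genes tested were called, and the median log2 fold change was 0.06. Against NE 5 were higher and 3 lower (16.3%, where 13.9% of all genes were called), with a median of 0.05, and in NE against CTR 0 were called, as for all genes. Without control replicate 1 the counts were 11 higher and 9 lower against CTR (34.4% of all genes) and 17 higher and 10 lower against NE (40.7%). Genes given below only because they passed in that smaller fit were named after their values were seen. The lists themselves were chosen with earlier results of these data known, so the adjusted p-values below are a description and no independent test.

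Of 3 extracellular enzymes tested that act on NAD and nucleotides beside CD38, 2 fell in both comparisons. Of all genes tested 9.34% were lower against CTR and 7.21% against NE, and a list of 3 genes is too short to set against these shares. Entpd1, which encodes CD39, the ectoenzyme that removes phosphates from ATP and ADP, was at 84.0, 104 and 110 CPM in CTR, 122, 128 and 103 CPM in NE, and 39.0, 41.5 and 39.0 CPM in TDE. Its log2 fold change was -1.32 ± 0.15 against CTR (adjusted p = 0.00103, edgeR) and -1.57 ± 0.15 against NE (adjusted p = 0.000434, edgeR), and without control replicate 1 it was -1.44 against CTR. Enpp1, a pyrophosphatase that cleaves NAD and ATP outside the cell, averaged 4.71 CPM in CTR, 5.27 CPM in NE and 2.0 CPM in TDE. Its log2 fold change was -1.24 ± 0.28 against CTR and -1.40 ± 0.28 against NE (adjusted p = 0.0201 and 0.0129, edgeR), and it no longer passed in either comparison when any TDE library was left out, nor against CTR without control replicate 2 or with library totals. Enpp1 was at -1.39 against CTR and passed without control replicate 1. Nt5e, which encodes CD73, the ectoenzyme that makes adenosine from AMP, differed by -0.25 ± 0.33 against CTR and -0.52 ± 0.33 against NE and did not pass (adjusted p = 0.601 and 0.388, edgeR). Its level in control replicate 1 was 5.32 CPM, compared with 13.1 and 15.6 CPM in the other controls and 8.87 to 10.1 CPM in TDE, and without that library its values were -0.60 and -0.53 and passed in both comparisons.

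Of the effectors of ADP-ribose and cyclic ADP-ribose, 1 of 2 tested rose and the other fell in TDE against CTR. Of all genes tested 7.57% were higher and 9.34% lower in that comparison. Trpm2, a cation channel opened by ADP-ribose, was at 55.3, 63.8 and 70.3 CPM in CTR, 68.6, 70.1 and 51.4 CPM in NE, and 117, 123 and 123 CPM in TDE. Trpm2 rose by 0.94 ± 0.16 on the log2 scale against CTR (adjusted p = 0.00634, edgeR) and 0.93 ± 0.16 against NE (adjusted p = 0.00632, edgeR). The Trpm2 value against CTR was 0.84 and passed without control replicate 1, and with library totals the value against NE was 0.87 and no longer passed. Ryr1, a calcium release channel that cyclic ADP-ribose acts on, was at 29.9, 10.5 and 9.79 CPM in CTR, 9.13, 8.46 and 10.2 CPM in NE, and 3.99, 2.95 and 3.19 CPM in TDE. It differed by -2.30 ± 0.43 against CTR (adjusted p = 0.00927, edgeR) and by -1.45 ± 0.42 against NE (adjusted p = 0.0567, edgeR). Without control replicate 1, its highest library, the Ryr1 value against CTR was -1.60 and still passed, and the value against NE was -1.46 and passed. It also passed against NE without control replicate 3. Sarm1, an intracellular NAD hydrolase of axons, had 0 to 4 reads per library and was under the filter.

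Among the 14 other genes of the PARP family tested, 2 rose in TDE against CTR (14.3%, where 16.9% of all genes were called) and 2 rose against NE (14.3%, where 13.9% were), with none lower in either. When control replicate 1 was left out, 5 were higher and 2 lower against CTR, and 6 were higher and 2 lower against NE, with Parp10 and Parp16 added to the higher ones in both, Parp3 against NE, and Parp11 and Parp12 the lower ones in both. In that fit 16.4% of all genes were higher and 18.0% lower against CTR, and 19.2% and 21.5% against NE, so calls became more frequent over all genes too. Tiparp, a mono-ADP-ribosyltransferase and target gene of the aryl hydrocarbon receptor, had the highest fold change of the pathway genes tested. It was at 10.8, 26.6 and 28.6 CPM in CTR, 31.6, 29.4 and 29.1 CPM in NE, and 117, 99.8 and 106 CPM in TDE. Tiparp rose by 2.29 ± 0.33 on the log2 scale against CTR (adjusted p = 0.00307, edgeR) and 1.84 ± 0.32 against NE (adjusted p = 0.00703, edgeR), and without control replicate 1 the value against CTR was 1.95. Parp9, an interferon-inducible family member, averaged 46.4 CPM in CTR, 54.3 CPM in NE and 72.3 CPM in TDE, and 458 of its exon bases lie across Dtx3l on the opposite strand. It passed against CTR (0.64 ± 0.18, adjusted p = 0.0445, edgeR) and not against NE (0.41 ± 0.18, adjusted p = 0.189). Parp6, a mono-ADP-ribosyltransferase, averaged 23.7, 17.2 and 29.2 CPM and passed against NE (0.76 ± 0.20, adjusted p = 0.0386, edgeR) and not against CTR (0.30 ± 0.20, adjusted p = 0.306). The Parp9 call against CTR was lost without control replicate 2 or without any library of NE or TDE, and the Parp6 call against NE was lost in the same cases. Without control replicate 1 both genes passed in both comparisons, with 0.45 against CTR and 0.40 against NE for Parp9 and 0.54 and 0.75 for Parp6.

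None of the 6 other sirtuins tested passed in TDE against CTR, where 16.9% of all genes tested were called. Their values there ran from -0.47 to 0.49. Sirt3, the mitochondrial deacetylase, had the highest, at 14.3, 10.5 and 11.1 CPM in CTR, 10.6, 11.1 and 9.65 CPM in NE, and 16.2, 17.0 and 17.1 CPM in TDE. It differed by 0.49 ± 0.15 against CTR (adjusted p = 0.0605, edgeR) and rose by 0.68 ± 0.15 against NE (adjusted p = 0.0203, edgeR). The call against NE was lost when any library of NE or TDE was left out, and without control replicate 1 the value against CTR was 0.63 and passed. Without that library Sirt6, a nuclear sirtuin, also passed as higher in both comparisons (0.29 against CTR and 0.37 against NE) and Sirt4, a mitochondrial one, against NE (0.49), and the range against CTR was -0.25 to 0.63. Exons of Sirt3 share 418 bases with Ric8a and 342 with Psmd13 on the opposite strand.

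Of the routes that supply NAD, none of 6 genes of synthesis from tryptophan and none of 4 other salvage genes passed in either comparison with all libraries. Of all genes tested 16.9% were called against CTR and 13.9% against NE, so 0 calls in lists this short are no result about these routes. Ido1, which starts tryptophan breakdown, had 11 to 24 reads per library and differed by 0.75 ± 0.28 against CTR and 0.65 ± 0.28 against NE (adjusted p = 0.104 and 0.187, edgeR). Nadsyn1, NAD synthetase of the nicotinic acid route, differed by -0.17 ± 0.16 and -0.08 ± 0.16 (adjusted p = 0.457 and 0.835, edgeR). Nmrk1, a nicotinamide riboside kinase, averaged 7.02, 5.66 and 8.68 CPM and differed by 0.31 ± 0.19 against CTR and 0.62 ± 0.19 against NE (adjusted p = 0.271 and 0.0678, edgeR), and the second value was 0.61 and passed without control replicate 1. Pnp2, a purine nucleoside phosphorylase, passed against NE in that fit as well (0.75), and its value against CTR went from -0.05 to 0.50 without passing. Pnp, given because its interval spans Pnp2 on the same strand, averaged 157, 127 and 105 CPM. It differed by -0.58 ± 0.25 against CTR and -0.28 ± 0.25 against NE (adjusted p = 0.139 and 0.578, edgeR). Without control replicate 1 the Pnp values were -0.23 and -0.29 and did not pass. Exons of Pnp and Pnp2 share bases with Gm49342 on the same strand, so a share of reads cannot be assigned with certainty. Qprt, which enters NAD synthesis from quinolinate, had 3 to 13 reads and Nmnat2, the adenylyltransferase of neurons, had 0 to 1 read per library, both under the filter.

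Of the 4 genes tested for NAD phosphorylation and transport, 1 rose against CTR, where 7.57% of all genes tested were higher. Nadk2, the mitochondrial NAD kinase, was at 10.3, 17.7 and 17.5 CPM in CTR, 18.7, 15.7 and 19.3 CPM in NE, and 26.3, 24.1 and 25.1 CPM in TDE. All TDE libraries lay above all others. It passed against CTR (0.73 ± 0.21, adjusted p = 0.0478, edgeR) and not against NE (0.49 ± 0.21, adjusted p = 0.18). The call against CTR was lost without control replicate 2 or without any library of NE or TDE, and without control replicate 1 the values were 0.51 and 0.48 and both passed. Without that library Slc25a51, the mitochondrial NAD carrier, also passed as higher (0.22 in both comparisons), and Nnt, the mitochondrial transhydrogenase between NAD and NADP, passed as lower (-0.63 against CTR and -0.67 against NE).

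Of the enzymes that clear nicotinamide, Aox1, an aldehyde oxidase that acts on methylated nicotinamide, rose from 0.588 CPM in CTR and 0.702 CPM in NE to 2.27 CPM in TDE. Its log2 fold change was 1.94 ± 0.41 against CTR and 1.69 ± 0.40 against NE (adjusted p = 0.0148 and 0.0258, edgeR), from 7 to 44 reads per library, and both calls were lost when any TDE library was left out, the call against NE also without any NE library or without the filter on low counts. The Aox1 values were 1.78 and 1.68 and both passed without control replicate 1. Nnmt, the methyltransferase before it, had 2 to 46 reads per library and was under the filter.

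The genes of ecto-ADP-ribosyltransferases, which put ADP-ribose on cell-surface proteins, and those of the ADP-ribose removal list had 1 call among 9 genes tested in each comparison. Of all genes tested 16.9% were called against CTR and 13.9% against NE. Art2a-ps, of the Art2 family, is annotated as a polymorphic pseudogene, and whether it encodes a working enzyme in these cells was not tested. Its level fell from 57.3 ± 8.57 CPM in CTR and 55.2 ± 6.30 CPM in NE to 28.7 ± 3.13 CPM in TDE (SD, n = 3 each). Its log2 fold change was -1.0 ± 0.16 against CTR and -0.95 ± 0.16 against NE (adjusted p = 0.00543 and 0.00667, edgeR), with -1.12 against CTR without control replicate 1, and since its sequence is close to that of Art2b, reads may be split between the pair. Art2b itself was tested and not called, and none of the 7 genes of ADP-ribose removal passed in either comparison with all libraries, with values from -1.62 to 0.07 against CTR. These ran, without control replicate 1, from -0.89 to 0.35, with Macrod1, Oard1 and Parg changing sign, and Adprhl2 passed as lower (-0.34). Against NE in that fit Macrod1 (0.73) and Oard1 (0.38) passed as higher and Parg (-0.29) and Adprhl2 (-0.32) as lower.

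**Figure D5:**
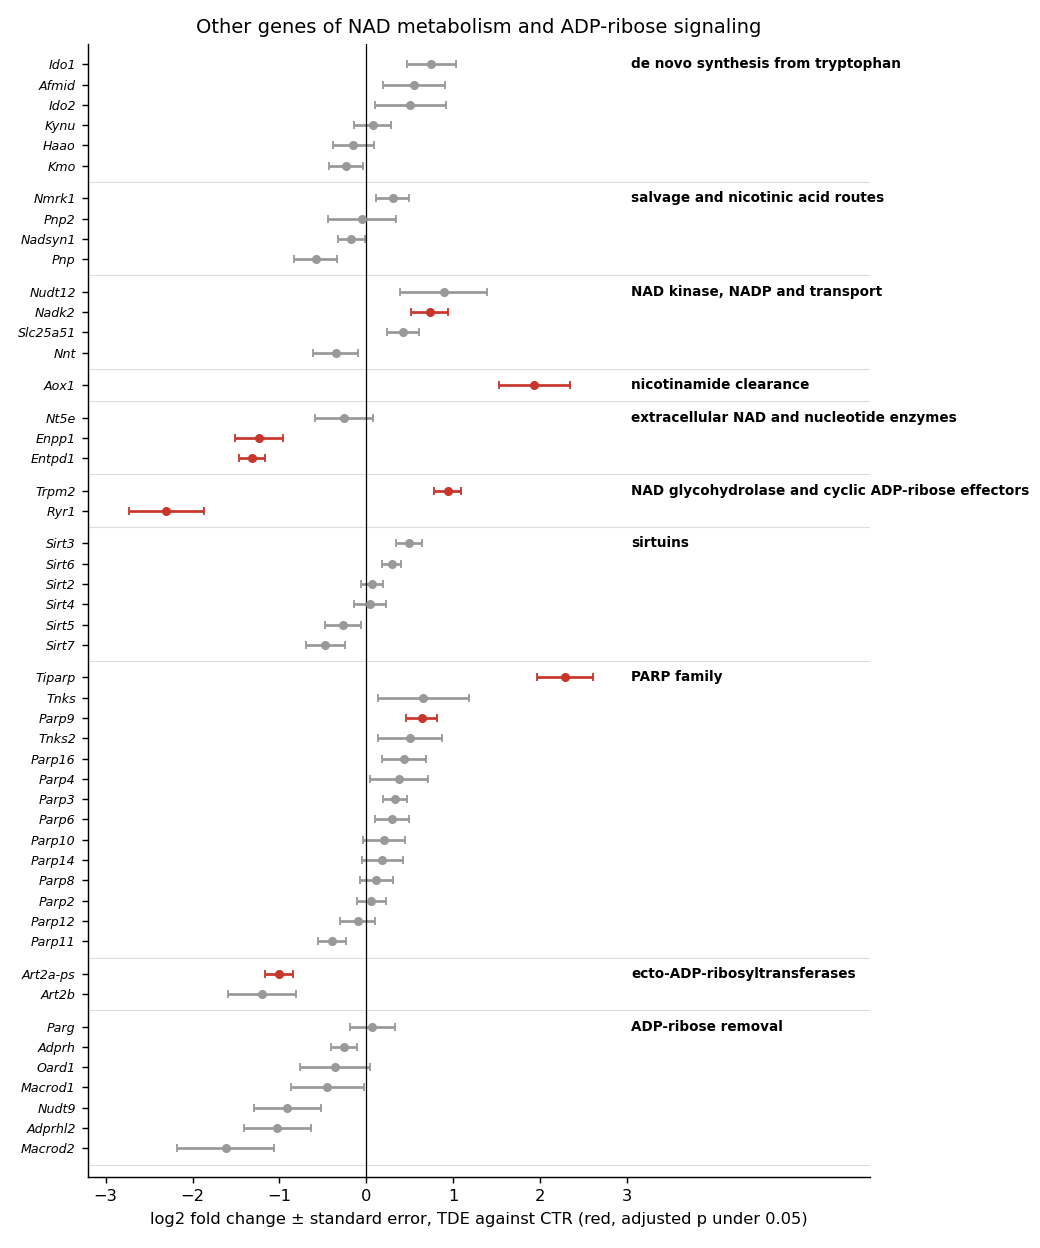
Log2 fold change of TDE against CTR with standard errors for the 49 other genes of the pathway lists that passed the filter, by list; red marks an adjusted p under 0.05 by edgeR. Tiparp (2.29), Aox1 (1.94), Trpm2 (0.94), Nadk2 (0.73) and Parp9 (0.64) are higher, and Ryr1 (-2.30), Entpd1 (-1.32), Enpp1 (-1.24) and Art2a-ps (-1.0) are lower.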

How the data were processed

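RNA-seq of 3 CTR, 3 NE and 3 TDE libraries was analysed. Per the paper's methods and the submitters' processing notes, RNA was extracted with TRIzol, primed with oligo(dT) and random primers, sequenced on an Illumina instrument, and aligned with TopHat2 2.1.1; DESeq2 1.24.0 and R 3.3.1 were also named. The counting program, build and annotation are not given in the sources used here. The authors deposited estimated counts (expected counts), not normalized, for 57238 entries with a gene length and group means; 5964 to 7750 entries per library were fractional. The group means served only as a check on the library columns. Annotation columns other than gene ID, name and length were not used.

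Counts were rounded, filtered with filterByExpr (15028 genes), normalized by TMM and fitted with 1 mean per group in edgeR 4.0.16 (R 4.3.3; quasi-likelihood test, Benjamini-Hochberg adjustment over all genes tested, threshold 0.05). SE was the log2 fold change over the square root of F. RPKM used the deposited length. Intervals of counting error are not given; a library's depth sets the floor of 3 reads. The code was tested on simulated data. Replicate pairs of a group differed beyond counting noise in every case (chi-square per degree of freedom 2.16 or more). Positions came from GENCODE vM21, in which all 55536 Ensembl entries were found. Alternatives were DESeq2 1.42.0, limma voom (limma 3.58.1), median-ratio factors, library totals, other filters, fits to 6 libraries, a replicate block, and leaving out single libraries. Tables and plots used Python 3.11.15 with pandas 2.3.3 and matplotlib 3.10.9.

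The 9 genes and the pathway and marker lists were chosen with earlier results of these data known. All 9 genes are named with every library. Of the pathway genes, 10 chosen for their role are always named, with every other gene that passed in a comparison of TDE without overlap between its libraries; likeness gives the 5 highest r, computed on log2(CPM + 0.5).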

Additional observations from a re-analysis of the deposited data

How the results depend on the processing

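Cd38 and Bst1 passed in both comparisons of TDE under all 17 alternatives, and Nampt passed against CTR under 11, not with library totals, a fit to only the pair's 6 libraries, the replicate block or without any TDE library; the cause was not tested. Main counts over all genes were 1137 higher and 1404 lower in TDE against CTR, 1011 and 1084 against NE, and 0 in NE against CTR. DESeq2 gave 1745, 2273 and 1526 for the first 3 and 6 lower in NE, with 8 other pathway genes higher against NE. Limma voom gave 3878 and 4008 against CTR, 4063 and 4248 against NE, and 2 higher and 16 lower in NE. By voom, the 9 genes had 5 higher and 2 lower against CTR and 6 and 2 against NE, and the other pathway genes had 16 and 15 against CTR and 18 and 14 against NE. Without the filter, 711 genes were lower against NE, and 3 and 2 other pathway genes were higher against CTR and NE. Fits to the 6 libraries of a pair gave 567 and 585 against CTR and 2991 and 3081 against NE, of the 9 genes 4 higher and 1 lower against NE, and of the other pathway genes 3 higher against CTR and 17 higher and 10 lower against NE.

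The libraries share replicate numbers that the labels do not explain, and same-numbered deviations from the group means correlated at -0.59 to 0.18, so the numbers were not taken to pair them. With the replicate block, 614 and 671 genes were called against CTR and 586 and 589 against NE, with 2 other pathway genes higher in each comparison. The block ended the calls of Aox1 and Enpp1 in both comparisons, of Nadk2 and Parp9 against CTR, and of Parp6 and Sirt3 against NE. Library totals ended those of Enpp1, Nadk2 and Parp9 against CTR and of Trpm2 against NE, leaving out the filter those of Nadk2 and Parp9 against CTR and of Aox1, Parp6 and Sirt3 against NE, and fits to a pair those of Nadk2 and Parp9 against CTR.

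Leaving out each library in turn gave 535 to 2503 higher and 568 to 2760 lower genes in TDE against CTR, 502 to 2934 and 468 to 3289 against NE, and 0 to 3 lower in NE against CTR. The highest counts were without control replicate 1, which left the others at 2440 or fewer lower against CTR. Of the 9 genes 2 to 3 were higher and 0 to 1 lower against CTR, and 2 to 4 and 0 to 1 against NE. Of the other pathway genes 2 to 11 were higher and 3 to 9 lower against CTR, and 2 to 17 and 2 to 10 against NE. Naprt ran from -0.86 to 0.12 in TDE against CTR and from -1.08 to -0.10 in NE against CTR. In the order by RPKM in CTR, Sirt1, Nmnat1, Nmnat3 and Naprt took places 6, 7, 8 and 9 both without control replicate 1 and with library totals, and with the union exon length Sirt1 was at 6, Naprt at 7 and Nmnat1 at 8.

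With library totals, log2 fold changes were 1.21 for Bst1 against CTR, 2.93 for Cd38, 0.58 for Nampt and -0.59 for Sirt1 against NE. Voom gave 0.066 for Naprt in TDE against CTR and -0.12 for Bst1 in NE against CTR. Among the named genes of the pathway lists, signs turned in NE against CTR for Art2a-ps (0.049 with library totals), Nadsyn1 (0.064 with library totals), Enpp1 (-0.087 by voom), Nadk2 (-0.030 by voom), Sirt3 (0.023 by voom) and Trpm2 (-0.014 by DESeq2 and -0.013 with median-ratio factors). Leaving out single libraries turned Aox1 (-0.012 to 0.81), Art2a-ps (-0.16 to 0.057), Enpp1 (-0.12 to 0.37), Ido1 (-0.046 to 0.21), Nadsyn1 (-0.18 to 0.026), Nt5e (-0.064 to 0.57) and Trpm2 (-0.083 to 0.12) in NE against CTR, and Nt5e (-0.60 to 0.049) in TDE against CTR.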
